A study of Mus musculus with 12 samples.

Results

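Fibroblast growth factor (FGF) ligands and receptors were followed in root-forming molars with and without the transcription factor Nfic. The genes were chosen by name: the 6 ligands Fgf2, Fgf3, Fgf7, Fgf9, Fgf10 and Fgf18 and the 4 receptors Fgfr1, Fgfr2, Fgfr3 and Fgfr4. All 10 were found among the 25899 genes of the deposited table. RNA came from the apical part of the first lower molar, taken at postnatal day 4 from mice of the strain C57BL/6. The 6 null libraries came from mice (Nfic-/-) that lacked both functional copies of Nfic. The 6 control libraries came from heterozygous littermates (Nfic+/-) that kept 1 of them, so both groups carried the mutant allele. Wild-type mice were not analysed here. Libraries are numbered 5 to 10 within each genotype, and equal numbers were read as the littermate pairs that the series describes, although no label states this. Nothing in the labels says whether a library held 1 animal or several, so p-values measure the spread between these libraries.

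FGFs are secreted proteins that bind heparan sulphate and receptor tyrosine kinases and signal through the Ras-MAP kinase cascade, which induces its own inhibitors of the Sprouty and dual-specificity phosphatase families. In the tooth, Fgf9 is known as an epithelial signal, whereas Fgf3 and Fgf10 are made in the dental mesenchyme. Fgf3, Fgf7 and Fgf10 act mainly through the epithelial (IIIb) receptor isoforms, above all that of Fgfr2. In the continuously growing mouse incisor, Fgf3 and Fgf10 maintain the epithelial stem cell niche, and in molars the loss of Fgf10 accompanies the switch from crown to root formation.

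Promoter sequence is shown because nuclear factor I (NFI) proteins, the family of Nfic, bind the half-site TTGGC and its reverse complement GCCAA. The 250 bases upstream of the RefSeq transcript start (RefSeq sequences, GRCm38.p6) are shown for Fgf3 and Fgf10, the ligands whose group means were lowest in null relative to heterozygous molars, and for Fgf9 and Fgfr2, whose means were not lower in null molars. Each is written 5′ to 3′ on the strand of the gene, with half-site matches on either strand in capitals.
Fgf3, chr7:144838362-144838611, plus strand: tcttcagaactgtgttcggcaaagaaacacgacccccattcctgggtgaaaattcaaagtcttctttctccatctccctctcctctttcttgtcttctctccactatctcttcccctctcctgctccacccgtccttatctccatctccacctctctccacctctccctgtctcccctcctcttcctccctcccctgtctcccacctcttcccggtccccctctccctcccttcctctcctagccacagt
Fgf10, chr13:118714449-118714698, plus strand: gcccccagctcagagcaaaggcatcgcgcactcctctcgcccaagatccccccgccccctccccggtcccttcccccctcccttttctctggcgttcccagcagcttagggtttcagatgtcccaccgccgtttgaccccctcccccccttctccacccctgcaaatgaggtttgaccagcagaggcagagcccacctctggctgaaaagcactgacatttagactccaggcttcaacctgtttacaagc
Fgf9, chr14:58072436-58072685, plus strand: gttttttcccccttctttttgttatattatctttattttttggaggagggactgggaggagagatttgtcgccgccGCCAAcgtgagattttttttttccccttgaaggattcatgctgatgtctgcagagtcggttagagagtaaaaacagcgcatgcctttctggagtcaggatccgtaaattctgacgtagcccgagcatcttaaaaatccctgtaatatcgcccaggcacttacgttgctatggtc
Fgfr2, chr7:130266809-130267058, minus strand: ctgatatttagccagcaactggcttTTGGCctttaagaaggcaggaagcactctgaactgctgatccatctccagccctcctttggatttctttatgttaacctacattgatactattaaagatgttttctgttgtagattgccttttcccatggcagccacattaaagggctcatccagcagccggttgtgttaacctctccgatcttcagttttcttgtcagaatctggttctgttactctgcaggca

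Among the 9 genes with an entry, the windows of Fgf9, Fgfr2 and Fgfr4 each held 1 half-site, and those of Fgf2, Fgf3, Fgf7, Fgf10, Fgf18 and Fgfr3 (both of its starts) held 0. The null mean was 0.713 times the heterozygous one for Fgfr4 and 0.983 times for Fgf18. The 4 windows shown were chosen by group means and do not stand for all 9 genes. The half-site is common by its length: 41.5% of 32851 promoter windows of 250 bases contained it on either strand. The palindromic full site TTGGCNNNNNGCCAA, which contains the half-site on both strands, was in 12 of those windows (0.0365%), and the GLI core GACCACCCA, the motif of the Hedgehog effectors, was in 74 (0.225%). Neither was in a window of these 9 genes. The Fgf3 window was rich in pyrimidines on the gene strand, and 17 of its bases lay in an annotated exon of the gene, against 0 for the windows of Fgf10, Fgf9 and Fgfr2. All 4 windows shown lie within the GENCODE span of their gene, which starts further upstream. A match describes letters only, and binding was not measured here.

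The depth recovered from the values was 70.2 to 96.4 M reads per library. Nfic itself had 11.3 to 24.5 RPKM (reads per kilobase of transcript and per M reads) in heterozygous molars, against 7.90 to 16.5 RPKM in null ones. The null value was the lower in 6 of 6 pairs, but the groups overlapped, and the gene-level value does not show which exons were read. All 12 epithelial and all 12 mesenchymal marker genes had a mean of 1 RPKM or more. Both libraries numbered 8 and both numbered 9 also carried intestinal transcripts, with 106 to 139 RPKM summed over 7 intestinal markers against 0.0759 to 0.112 in the other 8 libraries. Skeletal muscle markers were highest in null library 9, at 26.1 RPKM summed. The sample numbers in the column headers repeat between libraries 5 to 7 and libraries 8 to 10, which were therefore also analysed as separate subsets with 3 libraries of each genotype.

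Transcripts of the 4 receptors far exceeded those of the 6 ligands chosen here. Summed over the 4 receptors, the level ran from 69.7 to 124 RPKM in heterozygous molars (median 99.8) and from 65.3 to 115 RPKM in null ones (median 82.3). Summed over the 6 ligands, it ran from 1.81 to 7.43 RPKM (median 3.05) and from 1.17 to 3.80 RPKM (median 2.16). RPKM is a level per length, so genes can be ordered on it, given the lengths used. For Fgf2 the length recovered from the values was 1802 bases, against 6782 in its GENCODE exons. Its place and its share therefore depend on the gene model. The lengths were equal for Fgf3, Fgf7, Fgf10, Fgf18 and Fgfr4, and nearer to each other than for Fgf2 in the remaining genes. By the mean over 12 libraries the order was Fgfr1 (70.1 RPKM), Fgfr2 (20.6), Fgfr3 (5.04), Fgf3 (0.999), Fgf9 (0.685), Fgf2 (0.554), Fgf10 (0.505), Fgfr4 (0.133), Fgf18 (0.129) and Fgf7 (0.0689). Of the 9 neighbouring steps, 5 exceeded the spread between libraries in an exact 2-sided sign-flip permutation test, adjusted over the 9 steps by Benjamini-Hochberg. The order came from the same 12 libraries, so the steps and their directions were taken from the values tested. Fgfr4 in null library 5 and Fgf7 in null library 6 had 0 reads and entered at the floor of 0.9 reads. Fgfr1 over Fgfr2, Fgfr2 over Fgfr3, Fgfr3 over Fgf3 and Fgf10 over Fgfr4 held in 12 of 12 libraries (exact adjusted p = 0.0011 each), and Fgf18 over Fgf7 in 10 of 12 (exact adjusted p = 0.0229). The neighbouring steps from Fgf3 to Fgf9, Fgf9 to Fgf2 and Fgf2 to Fgf10 did not pass (exact permutation, adjusted p from 0.189 to 0.700). Nor did that from Fgfr4 to Fgf18 (adjusted p = 0.239). Fgfr4 was above Fgf18 in only 5 of 12 libraries and in 1 of 6 null ones. Its mean log2 ratio to Fgf18 was -0.90, opposite to the order of the means. Genes further apart were not tested. The order also pools genotypes. Fgf3 was above Fgf9 in 5 of 6 heterozygous libraries, with means of 1.51 and 0.638 RPKM, but in 2 of 6 null libraries, with means of 0.484 and 0.732 RPKM. Within the 6 libraries of 1 genotype the same exact permutation test cannot go below p = 0.0312, and 0 of 9 steps passed in either genotype, where the smallest adjusted p was 0.0703.

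**Figure D1:**
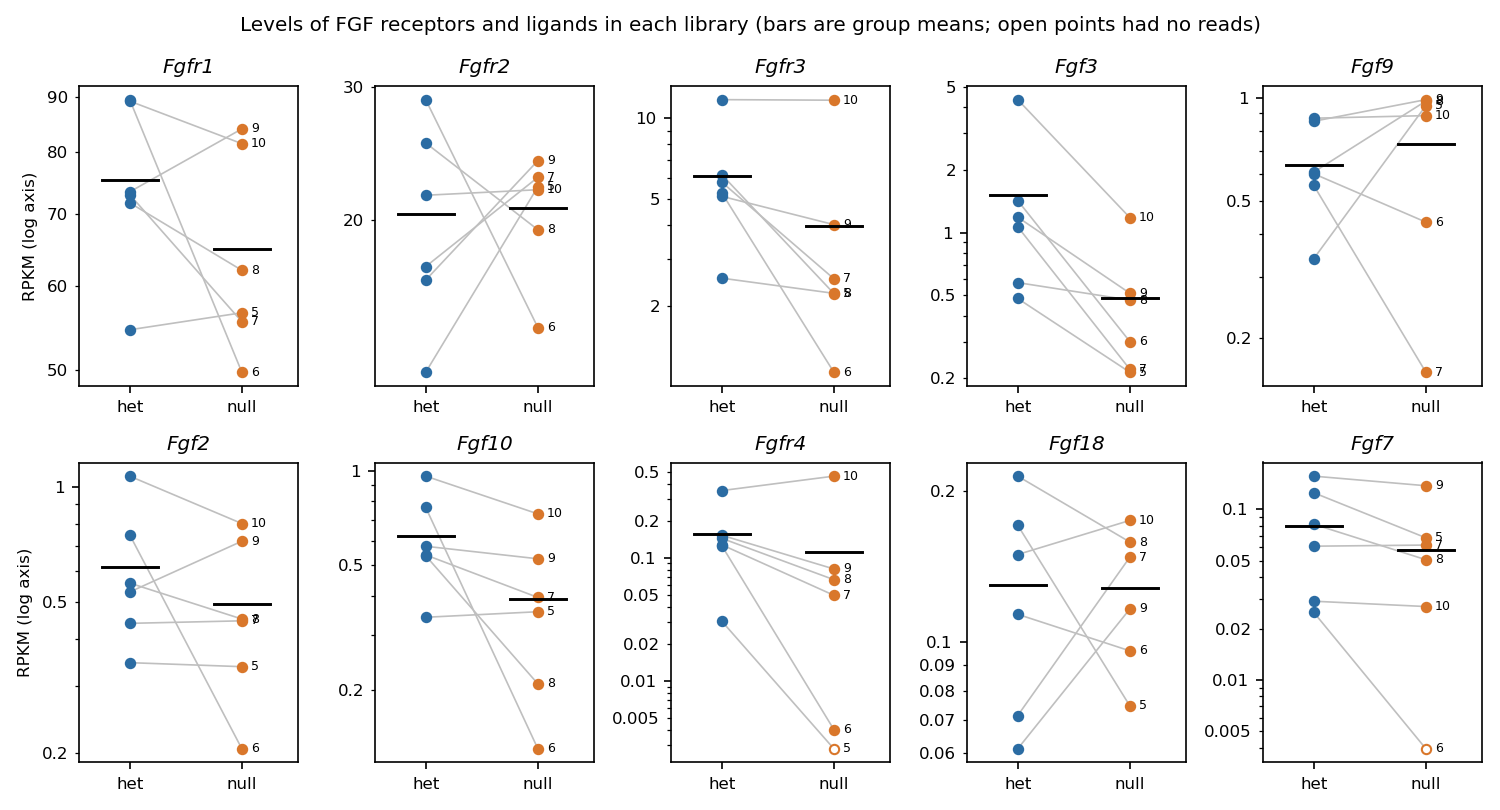
RPKM (log axis, a separate range for each gene) of 4 FGF receptors and 6 FGF ligands in 6 heterozygous (het, blue) and 6 null (orange) libraries. Grey lines join libraries of equal number, numbers are printed beside the null points, black bars are group means and open points had no reads. Every line of Fgf3 and Fgfr3 runs down from heterozygous to null, and the groups overlap for each of the 10 genes.

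Fgf3 was lower in the null molar in 6 of 6 pairs, but its difference did not pass the test over all genes. Fgf3 (chromosome 7, 144838083 to 144844436, plus strand, GRCm38) encodes a mesenchymal ligand of the epithelial receptor isoforms. In libraries 5 to 10 in turn, heterozygous molars had 0.483, 1.43, 1.07, 0.576, 1.19 and 4.35 RPKM, from 83, 246, 176, 121, 266 and 968 reads. Null molars had 0.214, 0.300, 0.221, 0.475, 0.512 and 1.18 RPKM, from 45, 49, 41, 94, 112 and 251 reads. The null libraries 5 to 8 lay below every heterozygous library, and 3 heterozygous libraries, 6, 9 and 10, lay above every null one, whereas the remaining values overlapped. Library 10 was the highest in both genotypes. The null value was 0.207 to 0.825 times its partner, with the ratio nearest to 1 in pair 8. The heterozygous mean was 1.51 ± 1.43 RPKM and the null mean 0.484 ± 0.364 RPKM (SD, n = 6 each).

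With a mean of 0.999 RPKM, Fgf3 fell just under the filter of 1 RPKM, so that it was tested with genes of 0.1 RPKM or more on the log2(RPKM + 0.1) scale, on which differences of low genes are understated. The difference, null minus heterozygous, was -1.30 (SE 0.468, 95% interval -2.31 to -0.29, n = 6 each), with a Benjamini-Hochberg adjusted p = 0.941 by limma over 16051 genes. At an adjusted p under 0.05, 0 of the 9 FGF genes tested and 0 of all genes were called (0%). At an unadjusted p under 0.05, Fgf3 was the 1 FGF gene of 9 lower in null molars, against 3.06% of all genes. With the library number as a block in the fit, 4 of the 9 were lower at that threshold (Fgf3, Fgf10, Fgfr3 and Fgfr4), against 5.51% of all genes, and 0 passed the adjustment. A value lower in 6 of 6 pairs was found for 3.15% of the genes tested. The Fgf3 difference came to -1.56 over libraries 5 to 7 alone, -1.03 over libraries 8 to 10 alone, -1.62 without the libraries numbered 8 and 9, and -0.93 without heterozygous library 10. Neither subset passed the limma test (adjusted p of 0.983 and 1).

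Fgf10 was lower in the null molar in 5 of 6 pairs and likewise did not pass. Fgf10 (chromosome 13, 118669791 to 118792115, plus strand) encodes the mesenchymal ligand whose loss marks the end of crown growth in molars. In libraries 5 to 10, heterozygous molars had 0.342, 0.765, 0.540, 0.537, 0.575 and 0.962 RPKM and null molars 0.356, 0.130, 0.395, 0.209, 0.525 and 0.730 RPKM, with 42 to 424 reads behind each value. Null libraries 6 and 8 were the lowest of all 12, and the other null values lay within the heterozygous range. The difference in log2(RPKM + 0.1) was -0.62 (SE 0.306, 95% interval -1.28 to 0.03, n = 6 each, limma adjusted p = 0.951). It came to -0.75 over libraries 5 to 7 alone, -0.50 over libraries 8 to 10 alone, -0.65 without the libraries numbered 8 and 9 and -0.37 without both libraries numbered 6.

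Fgf9, an epithelial ligand that signals to mesenchyme (chromosome 14, 58070547 to 58112720, plus strand), showed no common direction. In libraries 5 to 10, heterozygous molars had 0.340, 0.601, 0.556, 0.607, 0.854 and 0.872 RPKM and null molars 0.949, 0.434, 0.159, 0.978, 0.987 and 0.887 RPKM. Null libraries 5, 8, 9 and 10 lay above every heterozygous one, but null library 7 was the lowest of all 12, at 54 reads. On the log2(RPKM + 0.1) scale the difference was 0.057 (SE 0.350, 95% interval -0.70 to 0.81, n = 6 each). Its sign changed when any of 5 libraries was left out, namely heterozygous 5 or null 5, 8, 9 or 10, and the value then ran down to -0.083.

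The remaining ligands were lower in abundance or varied little with genotype. Fgf2, a ligand without a classical secretion signal (chromosome 3, 37348346 to 37410108, plus strand), ranged from 0.346 to 1.07 RPKM in heterozygous molars (median 0.544) and from 0.206 to 0.801 RPKM in null ones (median 0.448). Its difference was -0.29 (SE 0.292, n = 6 each), and the null value was the lower in 4 of 6 pairs. Fgf18, known for its role in skeletal growth (chromosome 11, 33117430 to 33147400, minus strand), had 0.0612 to 0.215 RPKM in heterozygous molars against 0.0745 to 0.175 RPKM in null ones, from 6 to 23 reads. Its median was 0.132 RPKM in both, and the difference was 0.0091 (SE 0.215, n = 6 each), with an interval from -0.45 to 0.47. Fgf7, the mesenchymal keratinocyte growth factor (chromosome 2, 126034658 to 126091185, plus strand), was covered by 0 to 49 reads. It ranged from 0.0249 to 0.157 RPKM in heterozygous molars, and from 0 reads in null library 6, which allows up to 3 reads, to 0.138 RPKM in null molars. Its highest values in both genotypes were those of library 9, and libraries 6 and 10 of both genotypes were the lowest. With a mean of 0.0689 RPKM it fell under both filters, and the fit without a filter gave a difference of -0.18 in log2(RPKM + 0.1) (SE 0.221, n = 6 each, limma adjusted p = 1). With voom weights on the recovered reads, where low values are less compressed, the difference was -0.83 (SE 0.823, limma adjusted p = 0.999).

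Receptor levels overlapped between genotypes for all 4 genes. Fgfr1 (chromosome 8, 25513654 to 25575718, plus strand), the most abundant of the 4 receptors, had 54.6, 89.5, 73.0, 71.7, 73.4 and 89.2 RPKM in heterozygous libraries 5 to 10 and 56.6, 49.8, 55.5, 62.0, 84.1 and 81.4 RPKM in null ones. Null libraries 5 to 8 lay below heterozygous libraries 6 to 10, while heterozygous library 5 was among the lowest of all. On the log2(RPKM + 1) scale used for genes of 1 RPKM or more, the difference was -0.22 (SE 0.150, 95% interval -0.54 to 0.10, n = 6 each), with a limma adjusted p = 1. At an adjusted p under 0.05, 0 of the 3 receptors tested and 0 of 12094 genes were called (0%), and 646 of those genes had an unadjusted p under 0.05, 329 of them lower in null molars (2.72%). None of the 3 receptors was among the 646.

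Fgfr2 (chromosome 7, 130162451 to 133123350, minus strand), whose IIIb isoform is the epithelial receptor of Fgf10, had 12.5 to 28.8 RPKM in heterozygous molars (median 19.4) and 14.4 to 23.9 RPKM in null ones (median 22.0). The difference was 0.058 (SE 0.179, 95% interval -0.33 to 0.44, n = 6 each) and turned to -0.064 without heterozygous library 5, the lowest of the 12. Gene-level values do not separate the IIIb and IIIc isoforms.

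Fgfr3 (chromosome 5, 33721674 to 33737068, plus strand), best known as an inhibitor of cartilage growth, was lower in the null molar in 6 of 6 pairs, as were 2.68% of the genes tested. Heterozygous libraries 5 to 10 had 2.53, 5.28, 5.78, 6.17, 5.12 and 11.8 RPKM and null libraries 2.22, 1.13, 2.52, 2.22, 4.01 and 11.7 RPKM. The pair of libraries numbered 10 was the highest of both groups and nearly equal, and null libraries 5 to 8 lay below every heterozygous one. The difference in log2(RPKM + 1) was -0.68 (SE 0.378, 95% interval -1.50 to 0.13, n = 6 each), with an adjusted p = 0.973 by limma. It came to -0.88 over libraries 5 to 7 alone, -0.48 over libraries 8 to 10 alone, -0.66 without the libraries numbered 8 and 9, and -1.01 without null library 10.

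Fgfr4 (chromosome 13, 55152640 to 55168759, plus strand), the receptor least expressed here, had 0.0306, 0.126, 0.127, 0.144, 0.152 and 0.351 RPKM in heterozygous libraries 5 to 10. In null libraries 6 to 10 it was read by 1, 14, 20, 27 and 149 reads, the last being 0.460 RPKM, and null library 5 had 0 reads, which allows up to 3. The null value was the lower in 5 of 6 pairs, and the exception was pair 10, the highest in both groups. The difference in log2(RPKM + 0.1) was -0.46 (SE 0.401, n = 6 each, limma adjusted p = 1), and -0.80 without null library 10 (adjusted p = 0.377). With voom weights on the recovered reads it was -1.96 (SE 1.04, limma adjusted p = 0.932), a value that depends on how libraries with 0 or 1 read are treated.

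Shares within each family do not depend on the scaling of a library, and were compared between genotypes by an exact 2-sided permutation test over libraries. Fgf3 made up 36.8% ± 12.6 of the summed ligand RPKM in heterozygous against 20.1% ± 7.35 in null molars (SD, n = 6 each). Heterozygous libraries 5 to 10 had Fgf3 shares of 26.8%, 38.8%, 39.1%, 22.4%, 35.3% and 58.5%, and null libraries had 10.7%, 25.7%, 15.5%, 20.5%, 17.1% and 31.1%. The share was lower in 6 of 6 pairs, by 16.7 percentage points on average, and the groups overlapped (exact permutation p = 0.0130, adjusted over the 6 ligands p = 0.0779). It was lower by 17.6 points in libraries 5 to 7 and by 15.9 points in libraries 8 to 10 (exact permutation p = 0.1 and 0.2, where 3 against 3 cannot go below 0.1), and by 20.1 points without the libraries numbered 8 and 9.

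The Fgf9 share went the other way, from 19.4% in heterozygous to 32.3% in null molars (exact permutation p = 0.0584, adjusted p = 0.175). Heterozygous libraries ran from 11.7% to 25.4% and null libraries from 11.1% to 47.5%, with null library 7 the lowest of all. Without that library the rise was 17.2 points and passed the threshold (exact permutation, adjusted p = 0.0390). Fgf10 held 18.4% and 17% of the ligand sum, Fgf2 17.9% and 21.7%, Fgf18 4.56% and 6.27%, and Fgf7 3.01% and 2.59%, heterozygous and null in turn. The 6 ligand shares sum to the whole, so they are not independent of each other.

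Among receptors, Fgfr1 made up 74.3% of the summed RPKM in heterozygous and 72.4% in null molars, and Fgfr2 made up 19.8% and 23.5% (exact permutation p = 0.0974, adjusted over the 4 receptors p = 0.390). The Fgfr2 share was higher in the null molar in 4 of 6 pairs. Fgfr3 made up 5.80% and 3.99% (exact permutation, adjusted p = 0.444), and Fgfr4 0.144% and 0.103%. Without null library 10 alone, the Fgfr3 share was lower by 3.04 points (exact permutation, adjusted p = 0.0346) and the Fgfr4 share by 0.0992 points (adjusted p = 0.0433), so that single library decided whether these 2 shares passed.

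**Figure D2:**
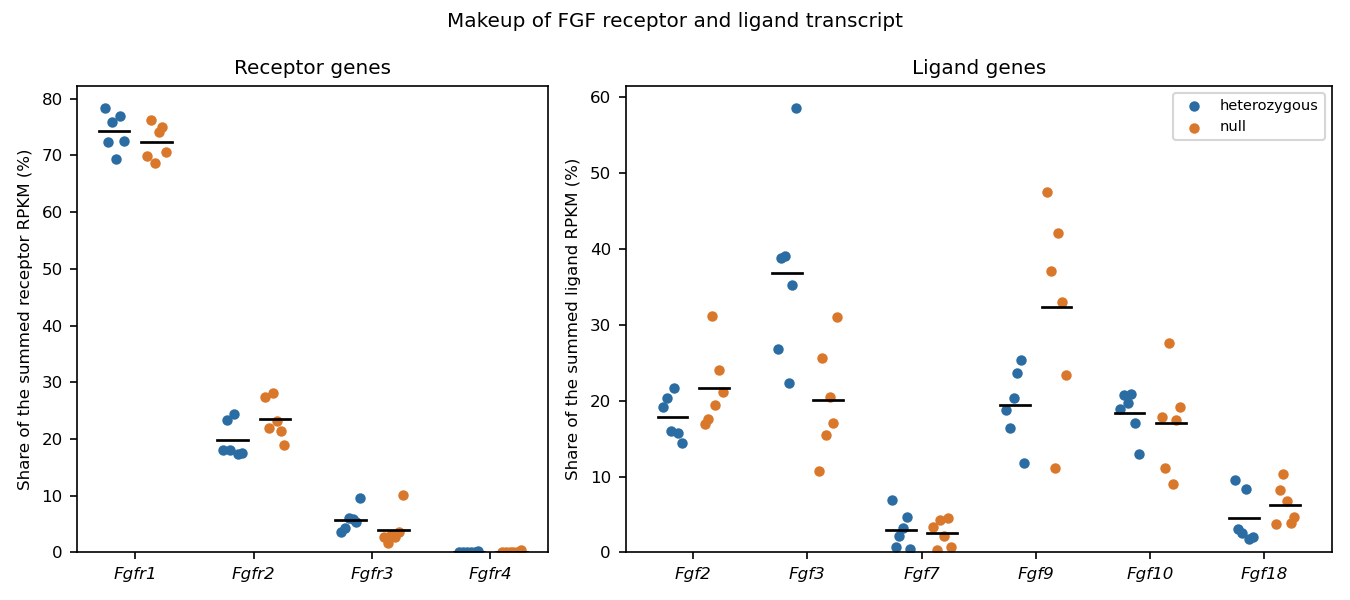
Share (%) of each receptor in the summed RPKM of the 4 receptors and of each ligand in the summed RPKM of the 6 ligands, per library, heterozygous in blue and null in orange, in the order of library numbers from left to right. Black bars are group means. The Fgf3 mean drops from 36.8% to 20.1% and the Fgf9 mean rises from 19.4% to 32.3%, with overlapping points in both.

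Marker genes of the tissues in the germ were compared in the same libraries. The 12 dental epithelium markers were all higher in null molars by their mean difference (1763 to 2705 RPKM summed in heterozygous, 2138 to 3146 in null), their mean level being the higher in 5 of 6 pairs, and 0 of 12 passed the limma test. Of the 12 dental mesenchyme markers, 11 were lower in null molars, with a median difference of -0.49 in log2(RPKM + 1) against -0.0028 for all genes, and 0 of 12 passed. The summed mesenchyme level ran from 346 to 699 RPKM in heterozygous molars, against 213 to 634 RPKM in null ones, and the mean level was the lower in 4 of 6 pairs. Other lists also lay lower in null molars. By the mean log2(RPKM + 1) the difference was -0.37 for 8 odontoblast markers (lower in 6 of 6 pairs), -0.57 for 6 follicle markers (5 of 6 pairs) and -0.46 for 4 endothelial markers (4 of 6 pairs), and 0 genes of these lists passed. The 5 ameloblast markers, with a difference of 0.10, were lower in 2 of 6 pairs, and 0 passed. They summed to 36001 to 141959 RPKM in heterozygous and 52802 to 139922 RPKM in null molars. Their highest sums were those of heterozygous library 5 and null library 6. Both libraries were the lowest of their genotype in the mesenchyme list, Fgfr1, Fgfr2 and Fgf10. The part of these lists in the FGF differences was not tested. In bulk tissue, fewer cells of a type and less RNA per cell cannot be told apart.

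Across the 12 libraries several FGF genes followed the mesenchyme list, which contains none of them. Among the 3 receptors of 1 RPKM or more, Fgfr1 (Pearson r = 0.920, Spearman rho = 0.867) and Fgfr3 (r = 0.937, rho = 0.923) passed a permutation test with 100000 resamples (adjusted p = 6e-05 for both r, adjusted p = 0.00141 and 0.00054 for rho). Fgfr2 had r = 0.609 and rho = 0.517 (permutation, adjusted p = 0.0707 and 0.107). Without the 2 libraries farthest from the list median, heterozygous 10 and null 6, r was 0.906 for Fgfr1, 0.913 for Fgfr3 and 0.522 for Fgfr2. Within libraries 5 to 7 and 8 to 10, r was 0.914 and 0.855 for Fgfr1, and 0.956 and 0.959 for Fgfr3. Over heterozygous and null libraries separately, r was 0.951 and 0.890 for Fgfr1, 0.823 and 0.815 for Fgfr2, and 0.913 and 0.924 for Fgfr3. The values within a genotype were not tested. In all, 2 of 6 relations passed, both of them with mesenchyme, and 0 of 3 receptors passed with the epithelium list. A high r with this list was common, since 28.7% of the 12094 genes reached 0.75 or more.

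The 7 genes under 1 RPKM were compared with both lists in the same way on log2(RPKM + 0.1), and 4 of the 14 relations passed. Fgf10 had the highest value with mesenchyme (r = 0.965, rho = 0.923, permutation, adjusted p = 0.00014 for r), with 0.996 and 0.959 in the same 2 subsets and 0.919 without the 2 farthest libraries. Fgf2 reached r = 0.937 (rho = 0.902), Fgfr4 r = 0.856 (rho = 0.874) and Fgf3 r = 0.778 (rho = 0.818), with permutation adjusted p of 0.00021, 0.00149 and 0.0107 for r. Within these subsets r was 0.753 and 0.738 for Fgf3, which on 6 libraries each did not pass (exact permutation p = 0.0819 and 0.0917). Fgf9 (r = 0.361), Fgf18 (r = 0.232) and Fgf7 (r = 0.0635) did not pass with mesenchyme, and 0 of 7 passed with epithelium. Without the libraries numbered 8 and 9, r with mesenchyme was 0.996 for Fgf10, 0.961 for Fgf2, 0.948 for Fgfr1, 0.941 for Fgfr3 and 0.834 for Fgf3. Of the genes with 0.1 RPKM or more, 29.4% reached an r of 0.75.

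**Figure D3:**
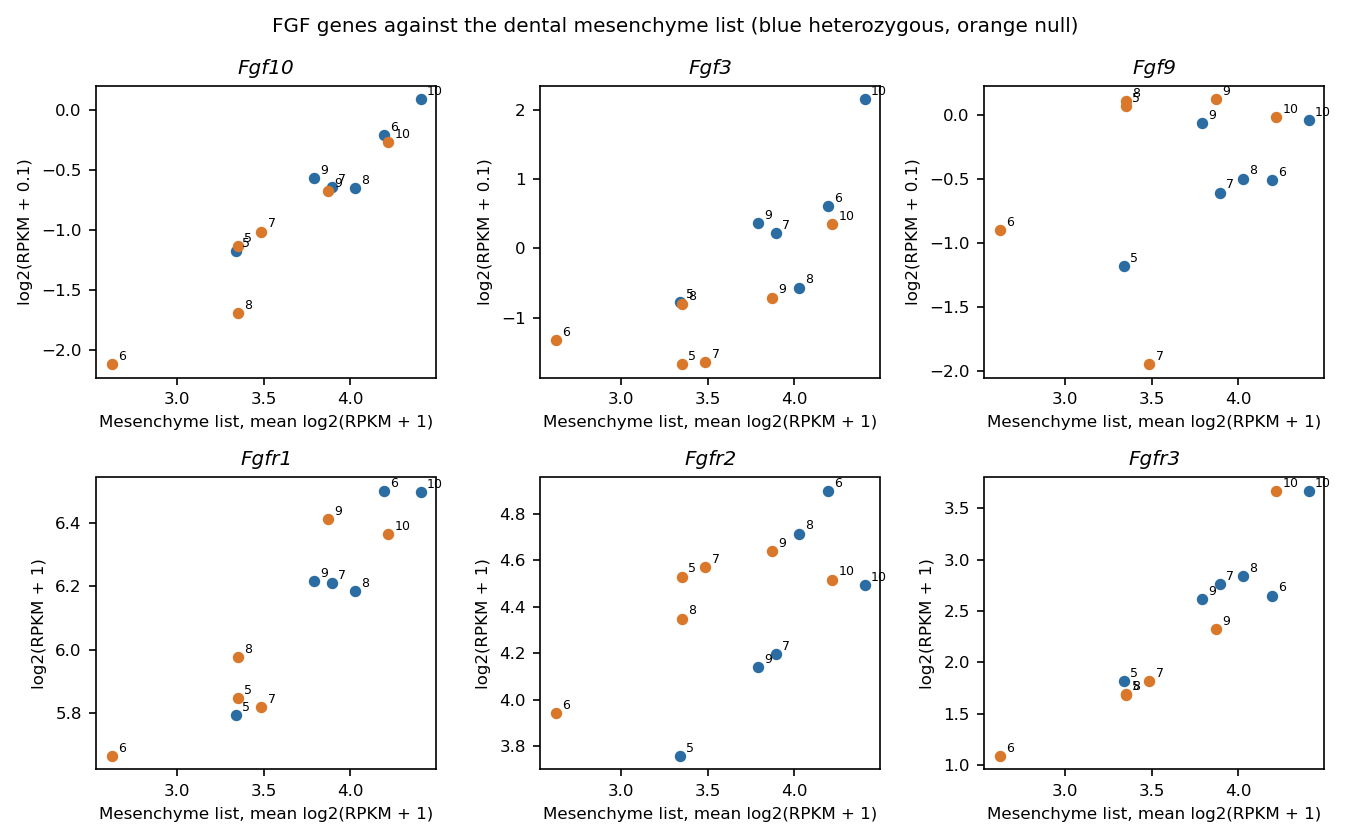
Level of 6 FGF genes, as log2(RPKM + 0.1) for ligands and log2(RPKM + 1) for receptors, against the mean log2(RPKM + 1) of 12 dental mesenchyme markers in each library. Numbers are library numbers. Fgf10 and Fgfr3 rise with the list in both genotypes (r = 0.965 and 0.937), null libraries 5 to 8 are the lowest in Fgf3, and Fgf9 scatters (r = 0.361).

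With tissue makeup as a term in the limma fit, measured as the mean of the epithelium markers minus that of the mesenchyme markers, the genotype difference in log2(RPKM + 0.1) moved upward for each of the 9 FGF genes tested, as it did for genes in general. The median over all 16051 genes went from -0.014 to 0.15, with 908 genes higher and 60 lower at an unadjusted p under 0.05. Fgf3 remained on the lower side at -0.34 (95% interval -1.20 to 0.51, adjusted p = 0.716), and Fgf10 came to 0.026 (adjusted p = 0.972). Fgfr1 came to 0.088 (adjusted p = 0.771), Fgf2 to 0.33 and Fgfr4 to 0.49 (adjusted p = 0.620 for both). Fgfr3 turned to 0.35 (95% interval 0.0071 to 0.69, limma unadjusted p = 0.0460, adjusted p = 0.620), the 1 FGF gene under 0.05 before adjustment. Fgf9 came to 0.48 (limma adjusted p = 0.644). Against the median of all genes, Fgf3, Fgf10, Fgf18 and Fgfr1 then lay lower and the other 5 higher. The part of tissue makeup in any difference was not tested.

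**Figure D4:**
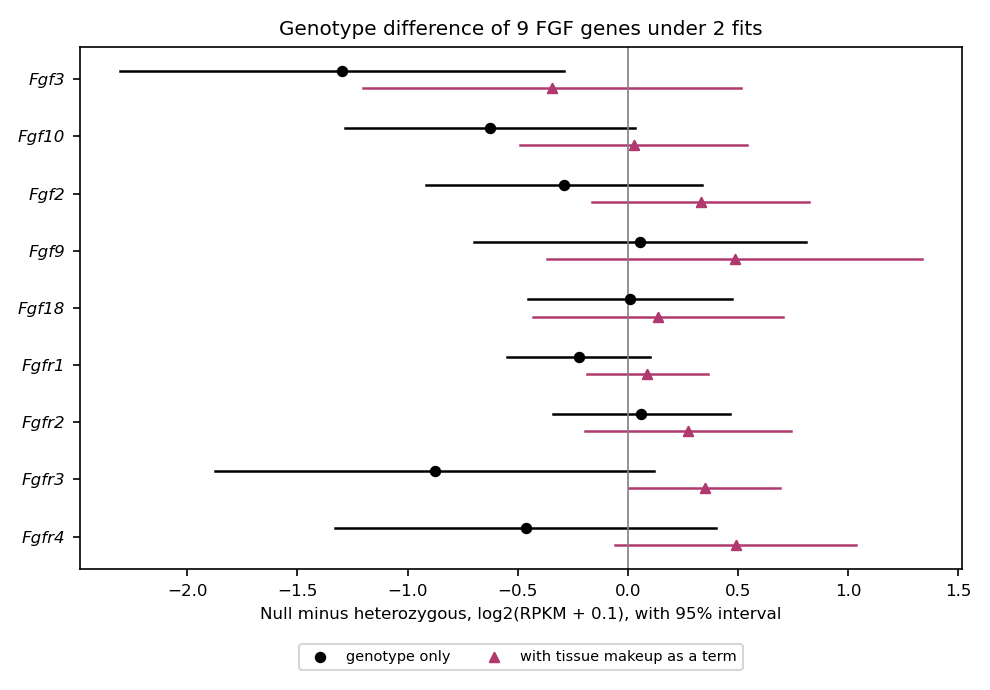
Genotype difference (null minus heterozygous, log2(RPKM + 0.1), with 95% interval, n = 6 each) of 9 FGF genes by limma, with genotype only (black circles) and with tissue makeup as a further term (purple triangles). With genotype only, the Fgf3 interval, -2.31 to -0.29, lies below 0 and the other 8 include 0. With tissue makeup the triangle of each gene lies to the right of its circle, and the median of all genes moves from -0.014 to 0.15. In that fit the Fgfr3 interval, 0.0071 to 0.69, lies above 0 and the other 8 include 0.

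Other genes of the pathway showed no call either. Of 16 further FGF ligands, 4 had a mean of 1 RPKM or more and 0 of these 4 passed, 2 lying above and 2 below 0. Fgf13, an intracellular FGF homologous factor, had 2.50 ± 1.21 RPKM in heterozygous molars and 1.53 ± 1.33 RPKM in null ones, the null value being the lower in 6 of 6 pairs (limma adjusted p = 0.965). Fgf1, a ligand able to bind all FGF receptors, had means of 5.17 ± 0.686 and 5.65 ± 0.655 RPKM, the null value being the higher in 6 of 6 pairs, at a difference of 0.11 (SE 0.0928, adjusted p = 1). With a mean of 5.41 RPKM over the 12 libraries, Fgf1 was above each of the 6 ligands described here. Fgf11, another intracellular homologous factor, had 1.69 and 1.60 RPKM.

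Of 24 tested coreceptors and FGF-binding proteins, 0 passed, 11 lay above and 13 below 0, and the median difference was -0.0084. The heparan sulphate proteoglycan Sdc3 had the smallest p of this list, with 35.9 ± 6.61 RPKM in heterozygous molars against 21.8 ± 6.89 RPKM in null ones (SD, n = 6 each). Its difference was -0.74 (SE 0.194), lower in 6 of 6 pairs, with a limma adjusted p = 0.934. The glypican Gpc6 had 4.66 and 2.15 RPKM and the adhesion molecule Cadm1 12.6 and 15.5 RPKM (limma adjusted p = 0.934 for both). Of 24 genes of signal transduction 0 passed (9 above and 15 below 0, median -0.027), and differences ran only from -0.16 to 0.091. The adaptor Grb2 had 29.0 and 30.8 RPKM, the kinase Braf 3.94 and 4.26 RPKM, and the ubiquitin ligase Cbl 4.97 and 4.55 RPKM. Of 14 feedback and Ets response genes 0 passed (6 above and 8 below 0, median -0.083). Dusp6, the ERK phosphatase and a common readout of FGF signalling, had means of 8.06 ± 1.87 and 6.47 ± 1.66 RPKM, the null value being the lower in 5 of 6 pairs (difference -0.28, SE 0.167, limma adjusted p = 0.980). The related phosphatase Dusp5 had 1.21 and 1.53 RPKM, and the immediate early gene Fos had 2.15 and 2.94 RPKM, with the null value the higher in 6 of 6 pairs.

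The genes most like each receptor were ranked by Pearson r of log2(RPKM + 1) over the 12 libraries among 10499 named genes of 1 RPKM or more, as a description of these libraries. For Fgfr1 they were Eml4 (r = 0.980), Sfxn1 (0.975) and Carhsp1 (0.970). Fgfr2 was followed by Wipi2 (r = 0.977), Tgif2 (0.961) and Ramp2 (0.961). Fgfr3 was followed by Atoh8 (r = 0.990), Mrc1 (0.988) and B3galnt1 (0.988). Of the ligands, Fgf3 was most like the glucose transporter Slc2a12 (r = 0.980) and the matrix linker Hapln1 was the third (0.968), while Fgf10 was most like Capns1 (0.983). Fgf9 reached no more than 0.885, with Nppc, which encodes C-type natriuretic peptide, and Fgf18 no more than 0.685, with Ppp3cc. Fgf7 was most like the Y-linked genes Kdm5d (r = 0.825) and Uty (0.799). The sex of the animals was not a term in any fit, and its part in the Fgf7 values was not tested. Among the FGF genes themselves, the highest r was 0.961 between Fgfr3 and Fgfr4, followed by 0.924 between Fgf2 and Fgfr1 and 0.911 between Fgf10 and Fgfr3. All of these values share the same 12 libraries and their tissue mix.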

How the data were processed

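RNA of heterozygous and null molar germs was sequenced as 6 libraries of each genotype. Reads were aligned with TopHat2 to mm10, per the submitters' processing notes. The counting tool and gene annotation were not stated in the sources used here. As deposited by the authors, the table holds log2 RPKM for 25899 genes (-11.1 to 16.7), where linear RPKM had been assumed for the design. Values were turned back to RPKM. Genes without reads carried a floor of 0.9 reads, 4897 of them in all 12 libraries, and reads were recovered as whole numbers for 99.7% of the other 21002 genes (tolerance 0.05 reads) at some transcript length, which gave the read numbers and depths. Count tests were not run on log values. For 24987 genes the identifier matched GENCODE M21 (GRCm38), the source of gene coordinates.

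Genotypes were compared with limma 3.58.1 (R 4.3.3, intensity trend, genotype as the term) on log2(RPKM + 1) for 12094 genes averaging 1 RPKM or more, and on log2(RPKM + 0.1) for 16051 genes with 0.1 RPKM or more, with Benjamini-Hochberg adjustment at 0.05. The fit was also run on simulated data with independent noise for each gene, whereas many genes varied together in these libraries. No result given here rests on that simulation. Shares, orders and correlations were tested by permutation in Python 3.11.15 (numpy 2.4.6, pandas 2.3.3, matplotlib 3.10.9). The genes and lists were chosen with earlier results of these data known. Besides the 10 genes, the 3 genes with the smallest p of each pathway list and the 3 genes most like each receptor were eligible for naming, and some genes like the ligands were named after their values were seen. Alternatives varied the pseudocount, filter, scaling, variance model, weights, covariates and libraries. Those with voom weights on recovered reads, with the block and tissue makeup together, on the genes under 1 RPKM in the correlations, and the shares and correlations without libraries 8 and 9 were added after the data had been seen.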

Additional observations from a re-analysis of the deposited data

Results flagged for a closer look

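Library 10 stood apart from the other 5 libraries of its genotype in 6 of the 40 groups of 6 values examined (levels and shares of 10 genes in each genotype), by a gap to the nearest value that, divided by the range, exceeded Dixon's 95% critical value. For normally distributed values chance alone gives about 1 such group in 20. Levels and shares were not transformed, and the 40 groups are not independent, so that rate is only a guide. The Fgf3 level was 4.35 RPKM in heterozygous library 10, where the next value was 1.43 RPKM, and 1.18 RPKM in null library 10, where the next was 0.512 RPKM. In null library 10 the Fgfr3 level was 11.7 RPKM (next 4.01) and the Fgfr4 level 0.460 RPKM (next 0.0811). In the same library Fgfr3 made up 10.1% of the receptor sum (next 3.58%) and Fgfr4 0.398% (next 0.0793%). The mesenchyme list was at its highest in heterozygous library 10, with a mean log2(RPKM + 1) of 4.41, and in null library 10 it was the highest of the null group, at 4.22, and its part in these values was not tested.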

How the results depend on the processing

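In every alternative 0 FGF genes passed the limma test at an adjusted p under 0.05. Over all genes, library weights called 17 genes of 1 RPKM or more, and leaving out 1 library at a time called 0 to 1 genes of 0.1 RPKM or more, the 1 gene without null library 7. Fgf3 kept a negative difference in 29 of 29 alternatives (-1.62 to -0.34, smallest adjusted p = 0.0832 with library weights). Fgfr3 came closer to the threshold with library weights, at -0.92 in log2(RPKM + 1) (limma adjusted p = 0.0631). Its sign changed in 1 of 27 alternatives.

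With the library number as a replicate block, 0 genes were called and the differences were the same with other errors: Fgf3 had an unadjusted p = 0.000520 and adjusted p = 0.232 by limma, Fgfr3 0.458, Fgf10 0.575 and Fgfr4 0.574 adjusted. The Fgf3 share had an exact sign-flip p = 0.0312 over the pairs, the smallest possible, and adjusted p = 0.188. As a check of the pairing, the deviations from the group mean were correlated within each pair, with r of 0.492, 0.00502, 0.310, 0.667, 0.688 and 0.802 in pairs 5 to 10. Only in pairs 8, 9 and 10 was the partner the null library best correlated with the heterozygous one, and the reverse was not examined. Libraries 8 and 9 of both genotypes shared intestinal transcripts (106 to 139 RPKM summed, against 0.0759 to 0.112 elsewhere). The part of these transcripts in the correlations was not tested.

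With tissue makeup as a term Fgf2 turned to 0.33, Fgf10 to 0.026, Fgfr1 to 0.087, Fgfr3 to 0.32 and Fgfr4 to 0.49, and with block and makeup together Fgf2 turned to 0.38, Fgf10 to 0.23 and Fgfr4 to 0.14. In the latter fit, on log2(RPKM + 0.1), Fgfr1 was 0.30, Fgfr2 0.69, Fgfr3 0.33, Fgf9 0.84 and Fgf18 0.0016. Fgf3 was -0.90 there (limma adjusted p = 0.454), and the median of all genes was 0.26. Leaving out 1 library at a time, Fgf9 ranged from -0.083 to 0.36, Fgf18 from -0.086 to 0.11 and Fgfr2 from -0.064 to 0.16. Without libraries 8 and 9, Fgf9 was -0.11 and Fgf18 -0.022, and in libraries 5 to 7 they were -0.16 and -0.076. Fgf18 was -0.0019 with a pseudocount of 1 and -0.025 with library weights. Leaving out 1 library at a time, 0 to 2 receptor shares and 0 to 1 ligand shares passed, the 2 without null library 10 and the 1 without null library 7. The Fgf7 share then ranged from -0.941 to 0.366 points and the Fgf10 share from -3.46 to 0.261 points. The Fgf10 share was 0.323 points without both libraries numbered 6 and 0.838 points without libraries 8 and 9, and the Fgfr1 share was 0.176 points in libraries 8 to 10. Of the neighbours in the order of levels, 0 passed in the 6 heterozygous and 0 in the 6 null libraries, where fewer samples set the smallest p. Of the relations to tissue lists, 1 passed in libraries 8 to 10. The cause of the other changes was not tested. Fgf7, Fgf18 and Fgfr4 rest on 0 to 149 reads per library, which limits the change that could be detected.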
